A study of Mus musculus with 24 samples.

Results

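The 10 genes described here are the myogenic regulatory factors Myf5, Myod1, Myog and Myf6, their partner Mef2c, the satellite cell genes Pax7 and Cdh15, the fusion gene Mymk, and the developmental myosin heavy chain genes Myh3 and Myh8. They were chosen by name as genes of muscle formation and regeneration, and all 10 were found among the 54752 gene IDs counted. RNA was sequenced from the gastrocnemius, a calf muscle, of mice in 24 libraries, in 8 groups of 3 formed by sex, genotype and treatment. All mice carried floxed alleles of Numb and NumbL, as Numb(f/f)/NumbL(f/f), and the transgene mice carried HSA-MCM as well. Flox mice, without the transgene, are the genotype controls. Each genotype received vehicle or tamoxifen, so the flox tamoxifen groups show tamoxifen without the recombinase. The sources used here do not give the age of the mice, the dose or the interval to tissue collection.

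The transgene, by the study's design text, is a Cre recombinase fused to parts of the estrogen receptor. The promoter of human skeletal actin, on in differentiated muscle fibres, drives it. Satellite cells, the resident stem cells, are therefore not its intended target, and a whole muscle contains both. Numb and its homologue NumbL (Numbl in the annotation) are adaptor proteins known for asymmetric division and as antagonists of Notch. Counts came in 3 tables, for transgene females, flox females and all males. Sex and table therefore cannot be told apart, and among females neither can genotype and table. In 3 male transgene libraries the title says vehicle and the treatment field says tamoxifen, and they were grouped by title. They are the whole male transgene vehicle group, so every comparison with that group rests on them. The 6 flox male libraries are titled WT although their genotype field gives the floxed alleles.

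Myogenesis proceeds through a cascade of basic helix-loop-helix factors. Pax7 marks satellite cells, Myf5 and Myod1 commit them to the muscle lineage, Myog drives terminal differentiation, and Myf6 persists in adult fibres. The factors bind E-boxes and act with MEF2 proteins, of which Mef2c is one. Cdh15 (M-cadherin) joins satellite cells to fibres, Mymk (myomaker) is a membrane protein needed for fusion, and Myh3 and Myh8 encode the embryonic and perinatal myosins that reappear in regenerating fibres.

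Promoter sequence is shown for 3 of the genes with the widest spread of levels over libraries, among those that RefSeq's table holds. These are Myog at chr1:134289754-134290003, Myh3 at chr11:67078050-67078299 and Myh8 at chr11:67276874-67277123, all on the plus strand of GRCm38.p6 and each covering the 250 bases before RefSeq's transcription start. Capitals mark every E-box, searched as CANNTG, whose reverse complement has the same form.
Myog: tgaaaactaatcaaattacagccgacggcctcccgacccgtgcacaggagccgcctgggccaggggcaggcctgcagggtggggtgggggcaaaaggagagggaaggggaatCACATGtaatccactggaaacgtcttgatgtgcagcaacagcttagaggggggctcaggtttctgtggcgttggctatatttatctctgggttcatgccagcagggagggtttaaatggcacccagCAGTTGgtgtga
Myh3: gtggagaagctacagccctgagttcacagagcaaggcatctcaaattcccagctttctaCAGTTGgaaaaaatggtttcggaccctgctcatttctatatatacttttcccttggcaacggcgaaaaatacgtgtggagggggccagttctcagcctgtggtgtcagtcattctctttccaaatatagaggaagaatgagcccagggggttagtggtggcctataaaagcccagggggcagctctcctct
Myh8: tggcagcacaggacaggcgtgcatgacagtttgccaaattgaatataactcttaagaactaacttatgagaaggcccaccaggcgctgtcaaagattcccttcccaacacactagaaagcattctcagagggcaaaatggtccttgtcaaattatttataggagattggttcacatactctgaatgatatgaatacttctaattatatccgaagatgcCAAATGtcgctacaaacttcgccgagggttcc

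The Myog promoter holds E-boxes that begin 138 and 12 bases before the start, the Myh3 promoter 1 at 191 bases and the Myh8 promoter 1 at 32 bases. An E-box of this form occurs in 66.2% of all 32851 promoters of the same length, so its presence does not set these genes apart. The MEF2 motif was searched on either strand as YTAWWWWTAR, where Y is C or T, W is A or T and R is A or G. The Myog promoter holds ctatatttat, which misses this strict form at its last base and was not counted. The Myh8 promoter holds a match to the MEF2 motif 99 bases before the start, a match found in 2.92% of promoters. That match overlaps a TATAAA on the opposite strand, 96 bases before the start. The Myh3 promoter holds a TATAAA on the printed strand 29 bases before the start. On either strand this motif occurs in 12.4% of promoters. RefSeq's table matched 7 of the 10 genes. Cdh15 has 3 E-boxes, Mef2c has at least 1 in 2 of its 3 promoters, and Myf5 and Pax7 have none in the window. Myod1, Myf6 and Mymk were not matched.

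The genes lie on 8 chromosomes of GRCm38 in the GENCODE annotation. Myf6 (chromosome 10, 107492853 to 107494737) and Myf5 (chromosome 10, 107482908 to 107486134) are neighbours on the minus strand, 6718 bases apart. Myh3 (chromosome 11, 67078300 to 67102291) and Myh8 (chromosome 11, 67277124 to 67308634) belong to a myosin cluster and are 174832 bases apart. Myog spans 134289989 to 134292548 of chromosome 1, Myod1 46376474 to 46379099 of chromosome 7, and Mef2c 83504034 to 83667080 of chromosome 13. No exon of the 10 genes overlaps an exon of another annotated gene. How reads that map to several places were counted is not given, so the counts of Myh3 and Myh8, which share sequence with the other myosins, are uncertain. Myh4, the fast myosin of this muscle, stood at 45900 to 96800 CPM (counts scaled to a library total of 1e6), against 7.25 to 30.0 CPM for Myh8. Whether Myh4 reads entered the Myh8 count was not tested.

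Libraries held 21516819 to 43014516 counts. The fast fibre genes that define the gastrocnemius were high everywhere, and the 10 fast fibre genes listed summed to 139000 to 256000 CPM. The 8 slow fibre genes varied far more, from 147 to 8000 summed CPM, and Myh7, the slow myosin, from 9.97 to 2660 CPM. The targeted gene Numb stood between 15.3 and 25.3 CPM in every library and Numbl between 2.67 and 6.49 CPM. In flox mice of both sexes, which lack the recombinase, Numb fell by 0.25 ± 0.06 (adjusted p = 0.0263) and Numbl rose by 0.46 ± 0.12 (adjusted p = 0.0315). In transgene mice of both sexes they differed by -0.13 ± 0.06 (adjusted p = 0.306) and 0.38 ± 0.12 (adjusted p = 0.0903). These are counts over whole genes, which do not separate the floxed part, so they do not measure recombination. Between tamoxifen and vehicle transgene mice, Numb differed by -0.24 ± 0.08 on the log2 scale (SE, adjusted p = 0.187 by edgeR's quasi-likelihood test) in females and by 0.00 ± 0.10 (adjusted p = 1) in males. Esr1, whose count can include the receptor part of the transgene, was 399 to 1950 CPM in transgene and 22.8 to 42.1 CPM in flox libraries, which checks the genotype labels. It was added to the checks after its values were seen. Flrt1, also chosen after its values were seen, stood at 3.26, 3.65 and 3.68 CPM in the 3 male libraries with conflicting labels. Its level was 1.02 to 2.79 CPM in the other 9 vehicle libraries and 8.56 to 280 CPM in the 12 tamoxifen libraries. The 3 libraries were thus above the other vehicle libraries and below every tamoxifen library. Among the other male libraries, Flrt1 was 1.67 to 2.31 CPM in flox vehicle mice. With tamoxifen it was 169 to 280 CPM in transgene males and 205 to 214 CPM in flox males.

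Levels were also divided by the kilobases of each gene's exons, joined over all its annotated transcripts. That length was 15.715 for Mef2c, 11.772 for Myh8, 6.057 for Myh3 and 1.263 for Myf6. It can exceed the length of 1 transcript, so the order of genes depends on it. Before division Mef2c had a mean of 639 CPM and Myf6 77.5, and Myh3 12.4 and Myh8 12.1. After division Myf6 was the highest of the 10 at a mean of 61.3 CPM per kilobase over 24 libraries, followed by Mef2c at 40.7. Cdh15 (8.49) and Myod1 (8.43) came next, then Myog (4.06), Myh3 (2.05), Myh8 (1.03), Myf5 (0.648), Pax7 (0.496) and Mymk (0.180). The satellite cell genes Cdh15 and Pax7 thus stood far apart in level, and Mymk was the lowest of all. In whole muscle, fewer cells of a type and less RNA per cell cannot be told apart.

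**Figure D1:**
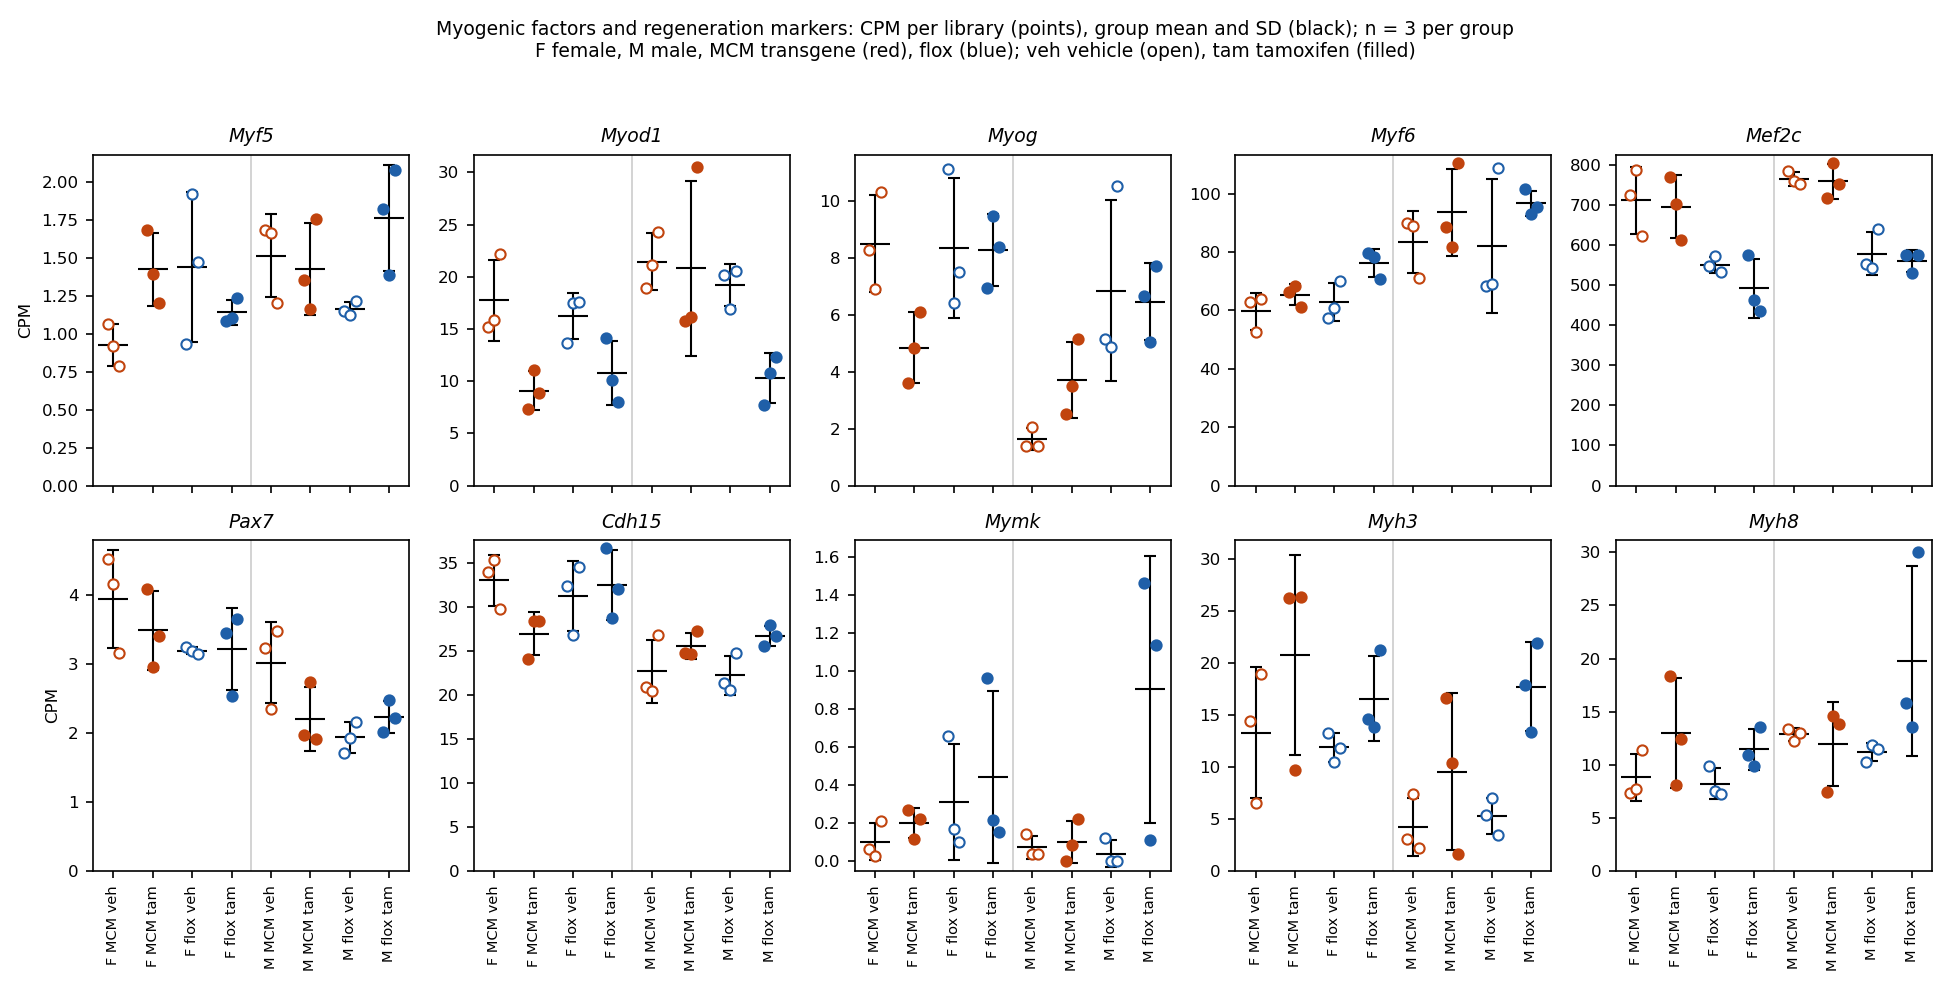
CPM of each of the 10 genes (vertical axes, linear) in each library (points), with the mean and SD of each group of 3 (black), for females (F) and males (M), transgene (MCM, red) and flox (blue), vehicle (veh, open) and tamoxifen (tam, filled). Mef2c is higher in all transgene than in all flox libraries of the same sex, Myog is lowest in the male transgene vehicle group, and Myh3 varies most among the genes detected in every library.

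Of the 10 genes, 9 passed the low-count filter in every comparison. Mymk passed only in the fits over 12 females and over 24 libraries. Among 12 comparisons and 113 tests of these genes, 4 passed an adjusted p of 0.05 by edgeR's quasi-likelihood test with Benjamini-Hochberg adjustment over all genes tested. They concerned Myog, Myod1 (in 2 comparisons) and Mef2c. Over all genes 0% to 5.23% passed, depending on the comparison. In the 3 comparisons with a call the shares were 0.947% (male vehicle), 5.23% (male tamoxifen) and 3.45% (flox mice of both sexes). The labels do not say whether replicates are separate animals, so p-values here reflect only the spread among libraries.

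Myog was the gene with the largest difference that passed the test. In male vehicle mice its level was 1.40, 2.06 and 1.40 CPM in the transgene libraries and 5.13, 4.88 and 10.5 CPM in the flox libraries. All 3 transgene values lay below all flox values, and the flox value of 10.5 CPM stood apart from the other two. The transgene group was lower by -2.07 ± 0.36 on the log2 scale (SE, n = 3 against 3, adjusted p = 0.0217, edgeR). Among all 15628 genes tested in this comparison 0.947% passed the threshold, and in 22.6% the groups did not overlap. Of the 9 genes tested here Myog alone passed by edgeR and by limma-voom, and DESeq2 called Myog and Mef2c. Over all genes limma-voom called 130 and DESeq2 601. The groups did not overlap for Myog, Mef2c, Pax7 and Myh8.

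This Myog difference rests on the 3 libraries whose labels conflict, since they are the whole male transgene vehicle group. It did not pass without replicate 1 of that group (-1.97, adjusted p = 0.0963, edgeR) or without replicate 3 (-1.99, adjusted p = 0.0975), and it passed in the other 18 of 20 alternatives. Under tamoxifen the male transgene libraries had 2.50, 3.49 and 5.13 CPM of Myog against 6.65, 5.03 and 7.70 CPM in flox males. These overlapped, and the difference of -0.81 ± 0.33 did not pass (adjusted p = 0.189, edgeR).

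Between tamoxifen and vehicle, Myog differed in opposite directions in transgene females and males, and neither difference passed the test. Transgene females had 8.27, 6.91 and 10.3 CPM with vehicle and 3.61, 4.81 and 6.09 CPM with tamoxifen, so every tamoxifen value was lower (-0.81 ± 0.22, adjusted p = 0.119, edgeR). In transgene males every tamoxifen value was higher than every vehicle value (1.19 ± 0.36, adjusted p = 0.207). The vehicle values of these males are from the 3 libraries with conflicting labels. The test of the difference between the female and male responses, female minus male, gave -2.01 ± 0.46 (adjusted p = 0.0832), where 0.192% of all genes passed. It rests on the same 3 libraries, and sex and table cannot be told apart in it. In flox mice the tamoxifen and vehicle values of Myog overlapped in both sexes, with differences of -0.01 ± 0.21 in females (adjusted p = 0.995) and -0.08 ± 0.33 in males (adjusted p = 0.938).

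The order of Myog levels ran from a mean of 1.62 CPM in male transgene vehicle mice to 8.49 CPM in female transgene vehicle mice, a 5.24-fold span of group means. Only the lowest group was separate from its neighbour in this order. The other 7 groups, from 3.71 CPM upward, overlapped with their neighbours.

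Myod1, the factor that commits cells to the muscle lineage, had lower means with tamoxifen in flox mice of both sexes and in transgene females. Flox males had 20.2, 16.9 and 20.6 CPM with vehicle and 7.71, 10.8 and 12.3 CPM with tamoxifen. Transgene females had 15.2, 15.9 and 22.2 CPM with vehicle and 7.36, 11.1 and 8.82 CPM with tamoxifen. In both of these pairs the groups did not overlap. Flox females had 13.7, 17.5 and 17.5 CPM with vehicle and 14.1, 10.1 and 8.04 CPM with tamoxifen, with 1 tamoxifen value inside the vehicle range.

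Taken singly, none of these passed the test. The log2 differences were -0.90 ± 0.25 in flox males (adjusted p = 0.0899), -0.96 ± 0.20 in transgene females (adjusted p = 0.0689) and -0.59 ± 0.20 in flox females (adjusted p = 0.477, all edgeR). Each passed in a few alternatives, namely 4 of 21 in flox males, 3 of 13 in transgene females and 3 of 14 in flox females. In the rest none passed. Averaged over both sexes, Myod1 fell by 0.74 ± 0.18 in flox mice (adjusted p = 0.0312), where 3.45% of all 16670 genes passed. That call was lost in 9 of 30 alternatives, with an adjusted p of up to 0.0887 and values of -0.87 to -0.66. In 8 of them 1 flox library was left out, namely female vehicle or female tamoxifen replicate 2 or 3, male vehicle replicate 1 or 3, or male tamoxifen replicate 1 or 2. In transgene mice the average was -0.51 ± 0.18 and did not pass (adjusted p = 0.148), where 3.31% of genes passed. It did pass in 2 of 30 alternatives, among which the adjusted p reached 0.339. Those 2 were the fit without male transgene tamoxifen replicate 3 (-0.70 ± 0.16, adjusted p = 0.0177) and the fit with the slow fibre score as a covariate (-0.56 ± 0.15, adjusted p = 0.0397).

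Transgene males had 18.9, 21.1 and 24.3 CPM of Myod1 with vehicle and 15.8, 16.1 and 30.5 CPM with tamoxifen, a difference of -0.04 ± 0.25 (adjusted p = 0.978, edgeR). Of the tamoxifen values 2 lay below all vehicle values, and replicate 3 was the highest of all 24 libraries. Without it the difference was -0.43 ± 0.17 (adjusted p = 0.506). The test of the transgene response of females minus that of males gave -0.93 ± 0.37 (adjusted p = 0.394). Under tamoxifen, male transgene libraries were therefore all above male flox libraries, and Myod1 was higher by 1.01 ± 0.25 (adjusted p = 0.0448). In that comparison 5.23% of all genes passed and 27.7% did not overlap, and of the 9 genes Myod1 and Mef2c passed and did not overlap. The Myod1 call was lost in 13 of 20 alternatives, with an adjusted p of up to 0.145. Among them, leaving out any 1 of the 12 male libraries other than transgene tamoxifen replicates 1 and 2 ended it. Without male transgene tamoxifen replicate 3 the difference was 0.62 (adjusted p = 0.0866), and with the slow fibre score as a covariate it was 0.56 (adjusted p = 0.137). The test of the male transgene response minus the male flox response gave 0.86 ± 0.36 for Myod1 (adjusted p = 0.57), where 0.0128% of genes passed. The same test in females gave -0.36 ± 0.32 (adjusted p = 0.872).

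Arntl, the core clock gene also known as Bmal1, was read beside Myod1. It fell by 1.74 ± 0.24 in transgene females (adjusted p = 0.0353, edgeR) and by 2.07 ± 0.40 in flox males (adjusted p = 0.0262). The differences were -0.95 ± 0.20 in flox females (adjusted p = 0.266) and -0.45 ± 0.37 in transgene males (adjusted p = 0.773). Over both sexes Arntl fell by 1.51 ± 0.25 in flox mice (adjusted p = 0.002) and by 1.10 ± 0.24 in transgene mice (adjusted p = 0.0144). Under tamoxifen it was higher in male transgene than in male flox mice, by 1.90 ± 0.40 (adjusted p = 0.025). After removal of group means, Myod1 and Arntl gave a Pearson r of 0.10 across the 24 libraries (permutation p = 0.633, adjusted p = 0.88) and a Spearman rho of 0.15 (permutation p = 0.538, adjusted p = 0.946), with r = 0.16 without the 2 libraries farthest from the median of Arntl and 0.36, 0.10 and 0.03 within the tables. Whether the differences in Arntl have a part in those of Myod1 was not tested.

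Myf5 was near the lower end of detection, with 26 to 69 counts per library. Transgene females had 1.07, 0.917 and 0.789 CPM with vehicle and 1.68, 1.39 and 1.20 CPM with tamoxifen, without overlap (0.64 ± 0.24, adjusted p = 0.238, edgeR). Flox males also had higher values with tamoxifen (1.82, 1.39 and 2.08 CPM) than with vehicle (1.15, 1.12 and 1.22 CPM), again without passing (0.60 ± 0.25, adjusted p = 0.226). The other pairs overlapped, with -0.33 ± 0.28 in flox females (adjusted p = 0.797) and -0.09 ± 0.24 in transgene males (adjusted p = 0.95).

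Myf6, the most abundant of the 4 myogenic regulatory factors, ranged only from 52.4 to 110 CPM. Group means ran from 59.7 CPM in female transgene vehicle mice to 96.7 CPM in male flox tamoxifen mice. The log2 differences with tamoxifen were 0.14 ± 0.10 (transgene) and 0.28 ± 0.09 (flox) in females and 0.17 ± 0.18 (transgene) and 0.23 ± 0.18 (flox) in males, and none passed the test. In flox females the values did not overlap, with 57.5, 60.8 and 70.0 CPM for vehicle and 79.8, 78.2 and 70.6 CPM for tamoxifen (adjusted p = 0.428, edgeR).

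Mef2c separated the genotypes rather than the treatments. In males the 6 transgene libraries had 718 to 805 CPM and the 6 flox libraries 530 to 639 CPM. In females the ranges were 613 to 788 CPM and 436 to 576 CPM. The transgene mean was 1.34 times the flox mean in males (762 ± 30.1 against 569 ± 38.7 CPM, SD, n = 6 each) and 1.35 times in females (703 ± 73.1 against 521 ± 58.4 CPM). No transgene library overlapped a flox library of its sex, although in females genotype and table cannot be told apart. How many of all genes separate the genotypes in this way, 6 libraries against 6, was not counted. Between male genotypes within a treatment, on fewer libraries, 22.6% of genes tested did not overlap under vehicle and 27.7% under tamoxifen. These shares do not give the share for 6 libraries against 6. Whether separation sets Mef2c apart from other genes was therefore not tested.

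The male comparisons, made within 1 table, gave a higher Mef2c level in transgene mice under tamoxifen (0.43 ± 0.10 on the log2 scale, adjusted p = 0.0232, edgeR). Under vehicle the difference was 0.40 ± 0.10 and did not pass (adjusted p = 0.0753). It passed in 3 of 20 alternatives, with DESeq2 (adjusted p = 0.00224), without a filter on low counts (adjusted p = 0.0375) and without transgene tamoxifen replicate 1 (adjusted p = 0.0477). The tamoxifen call was lost in 7 of 20 alternatives, with adjusted p up to 0.104, while the value stayed between 0.38 and 0.49. Each of 5 single libraries ended it when left out, namely transgene tamoxifen replicates 2 and 3 and all 3 flox tamoxifen replicates. Between tamoxifen and vehicle, Mef2c differed by -0.16 to -0.01 in the 4 treatment comparisons, and the lowest of their adjusted p was 0.743.

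Pax7, the satellite cell transcription factor, was detected at 43 to 168 counts per library. In male vehicle mice it was 3.23, 2.35 and 3.48 CPM with the transgene and 1.71, 1.93 and 2.16 CPM in flox mice, which did not overlap (0.64 ± 0.22, adjusted p = 0.17, edgeR). With tamoxifen it stood at 1.96, 2.74 and 1.91 CPM in transgene males and 2.02, 2.48 and 2.21 CPM in flox males. The response to tamoxifen was -0.46 ± 0.22 in transgene males (adjusted p = 0.511) and 0.21 ± 0.22 in flox males (adjusted p = 0.683). In females the group means were 3.20 to 3.94 CPM, and every pair of neighbours in their order overlapped.

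Cdh15 was the steadiest of the 10 genes across libraries, with 20.4 to 36.7 CPM, a 1.80-fold span. Female group means (27.0 to 33.0 CPM) all lay above male group means (22.2 to 26.7 CPM), although single libraries overlapped, a difference that cannot be told apart from table. Transgene females had 33.9, 35.4 and 29.7 CPM with vehicle and 24.1, 28.4 and 28.3 CPM with tamoxifen (-0.28 ± 0.10, adjusted p = 0.201, edgeR). Flox males had 21.4, 20.6 and 24.7 CPM with vehicle and 25.6, 27.9 and 26.7 CPM with tamoxifen (0.26 ± 0.12, adjusted p = 0.262). These pairs did not overlap, in opposite directions, and neither passed.

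**Figure D2:**
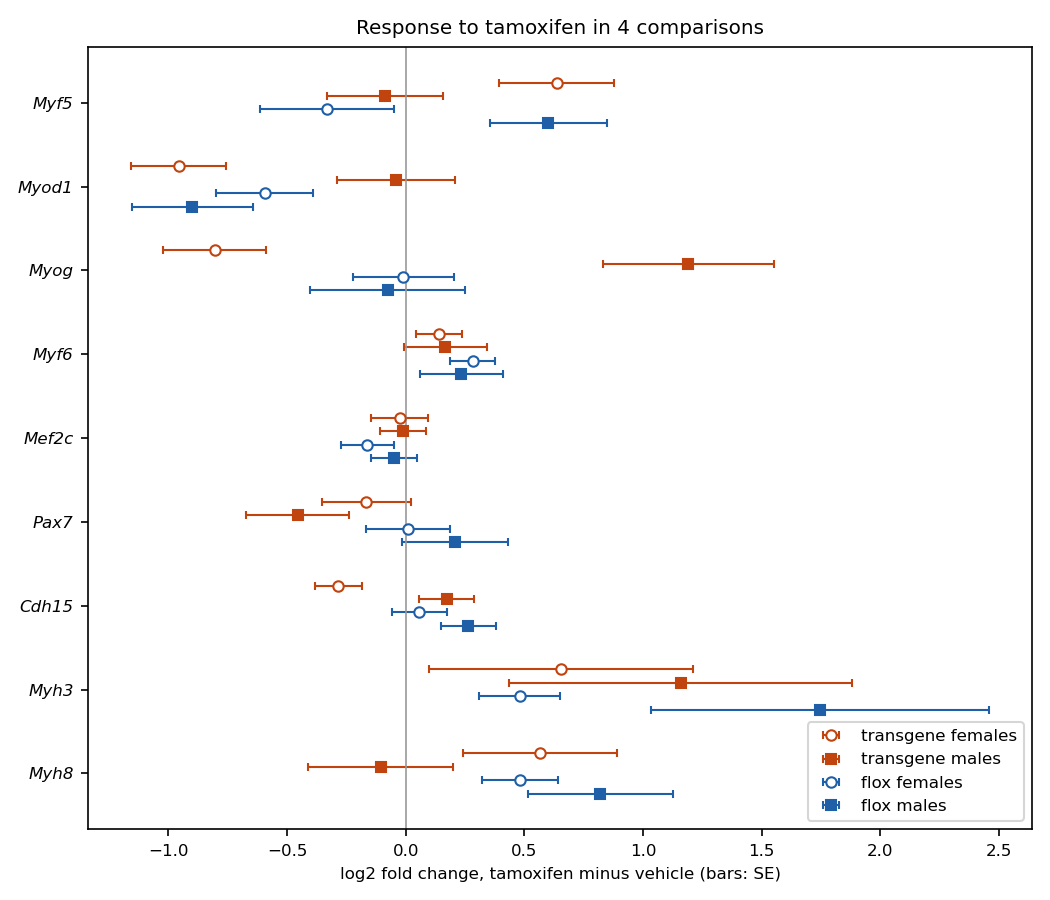
Log2 fold change of tamoxifen minus vehicle (horizontal axis, bars: SE) for the 9 genes tested in all 4 treatment comparisons (circles: females, squares: males, red: transgene, blue: flox). Myod1 lies between -0.96 and -0.59 except in transgene males, where it is -0.04, Myog points in opposite directions in transgene females (-0.81) and transgene males (1.19), and Myh3 lies above 0 in all 4.

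In the treatment comparisons taken one by one, 0 of the 9 genes tested passed by edgeR in any. In transgene females 4 had an unadjusted p under 0.05, as did 2385 of all 14211 genes tested. DESeq2 called 2 (Myod1 and Myog) and limma-voom 0. Over all genes DESeq2 called 679 and limma-voom 146, and by edgeR 1.32% passed. The groups did not overlap for 4 of the 9 there, against 22.6% of all genes. In flox females 4 had an unadjusted p under 0.05, as did 1257 of all 14539 genes, and both other tools called 0. Over all genes DESeq2 called 145 and limma-voom 10, and by edgeR 0.131% passed. There 3 of 9 did not overlap, against 14.5%. In transgene males 1 had an unadjusted p under 0.05, as did 1583 of all 15628 genes. DESeq2 called 1 (Myog) and limma-voom 0. Over all genes DESeq2 called 328 and limma-voom 131, and by edgeR 0.889% passed. There 1 of 9 did not overlap, against 13.8%. In flox males 5 had an unadjusted p under 0.05, as did 2728 of all 15628 genes. DESeq2 called 1 (Myod1) and limma-voom 0. Over all genes DESeq2 called 871 and limma-voom 429, and by edgeR 2.89% passed. There 5 of 9 did not overlap, against 27.8%.

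The tests of unlike responses also called 0 of these genes by edgeR. For the response of transgene minus flox females, 0% of all genes passed, with 1145 at an unadjusted p under 0.05, 45 called by DESeq2 and 0 by limma-voom. Of the 10 genes 2 had an unadjusted p under 0.05 there (Myf5 and Myog), and both other tools called 0. For males 2 of 9 had an unadjusted p under 0.05 (Myod1 and Myog), as did 1290 of all 15628 genes. Again both other tools called 0 of the 9, and over all genes DESeq2 called 79 and limma-voom 0. For the female minus male response, 3 of 10 genes in transgene mice and 2 of 10 in flox mice had an unadjusted p under 0.05. Over all 16670 genes, 1584 and 1804 did. DESeq2 called 1 (Myog) and 0 of the 10, and 148 and 154 of all genes. Calls by limma-voom were 0 and 0 of the 10, and 25 and 28 of all genes. By edgeR 0.192% and 0.204% of all genes passed.

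Myh3, the embryonic myosin, had the widest spread of the genes detected in every library, from 1.58 to 26.3 CPM, a 16.7-fold range. Flox males had 5.33, 6.94 and 3.47 CPM with vehicle and 17.8, 13.4 and 21.9 CPM with tamoxifen, without overlap. Flox females had 13.3, 10.5 and 11.8 CPM with vehicle and 14.6, 13.8 and 21.2 CPM with tamoxifen, also without overlap. The differences of 1.75 ± 0.71 in males (adjusted p = 0.25, edgeR) and 0.48 ± 0.17 in females (adjusted p = 0.477) did not pass, nor did their average of 1.12 ± 0.43 (adjusted p = 0.182). Without female flox tamoxifen replicate 3 the Myh3 difference in flox females was 0.26 ± 0.12 (adjusted p = 0.815).

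Transgene mice varied more. Transgene females had 14.4, 6.50 and 18.9 CPM of Myh3 with vehicle and 26.3, 9.69 and 26.3 CPM with tamoxifen (0.65 ± 0.56, adjusted p = 0.638, edgeR). Transgene males had 3.09, 7.41 and 2.20 CPM with vehicle and 16.6, 10.3 and 1.58 CPM with tamoxifen (1.16 ± 0.72, adjusted p = 0.675). Over the alternatives these Myh3 differences were as low as -0.09 in females, with the slow fibre score as a covariate, and ran from 0.49 to 1.83 in males. In each of the 4 transgene groups the library lowest in Myh3 was also the lowest in Myh7. The male tamoxifen library at 1.58 CPM had 9.97 CPM of Myh7, against 759 and 214 CPM in the other libraries of its group.

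Across the 24 libraries, after removal of group means, Myh3 followed Myh7 with a Pearson r of 0.88 (permutation p = 0.00177, adjusted p = 0.0575) and a Spearman rho of 0.68 (permutation p = 0.0104, adjusted p = 0.339). Without the 2 libraries farthest from the median of Myh7, r was 0.74. It was 0.96 within transgene females, 0.25 within flox females and 0.90 within males. Cdh15 ran the other way, with r = -0.58 (permutation p = 0.00097, adjusted p = 0.0575) and rho = -0.67 (permutation p = 0.00137, adjusted p = 0.089), r = -0.70 without the 2 farthest libraries, and -0.73, -0.73 and -0.62 within the tables. In all, 65 relations were computed, among the 10 genes and with Myh7 and Arntl, and 0 passed after adjustment. With a slow fibre score as a covariate, the Myh3 difference passed the test in flox males (1.62 ± 0.37, adjusted p = 0.0377, edgeR) and in flox mice of both sexes (1.15 ± 0.24, adjusted p = 0.00962). Over all alternatives the adjusted p of Myh3 lay between 0.0147 and 0.51 in flox males and between 0.00962 and 0.357 in both sexes.

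**Figure D3:**
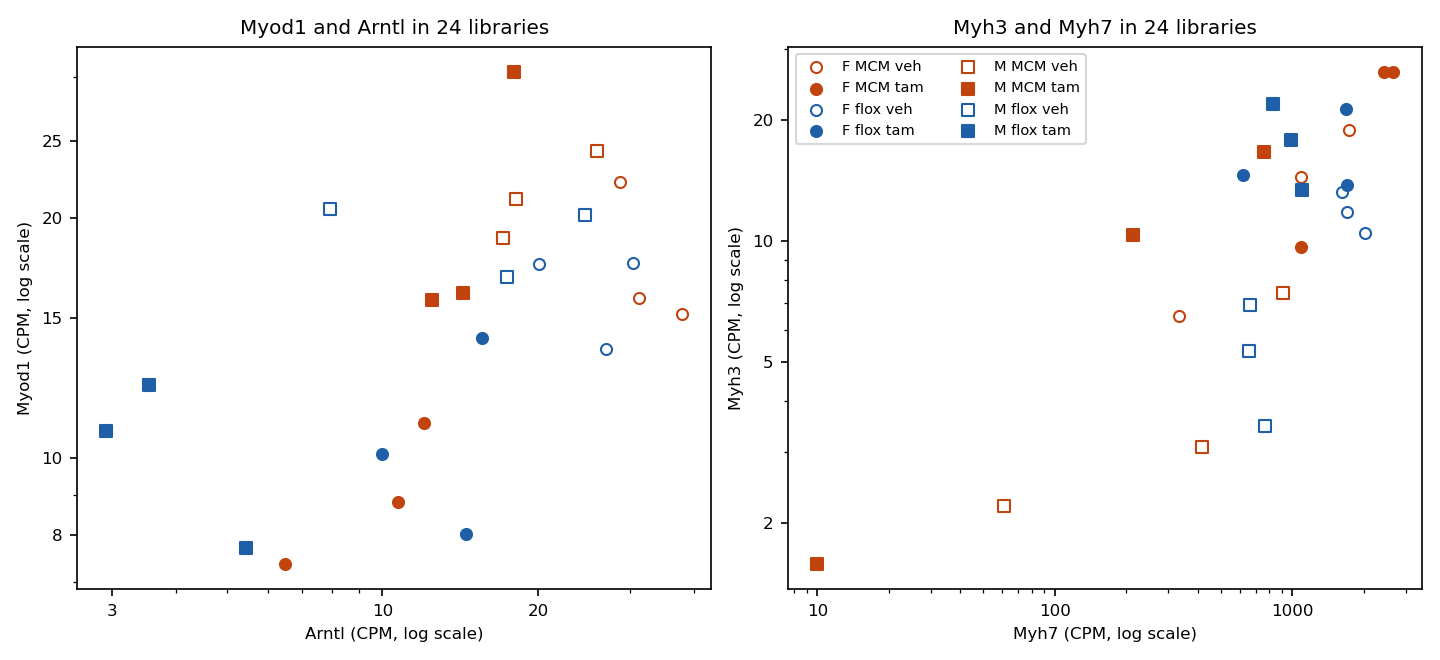
Left, Myod1 against Arntl, and right, Myh3 against Myh7, in CPM on log axes, 1 point for each of 24 libraries (circles: females, squares: males, red: transgene, blue: flox, open: vehicle, filled: tamoxifen). Tamoxifen groups other than transgene males lie toward the lower left on the left, and on the right the library with 9.97 CPM of Myh7 has the lowest Myh3.

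Myh8, the perinatal myosin, stood higher with tamoxifen in flox mice of both sexes. Flox males had 10.3, 11.9 and 11.5 CPM with vehicle and 15.8, 13.5 and 30.0 CPM with tamoxifen, where replicate 3 was the highest of all libraries. Flox females had 9.87, 7.49 and 7.25 CPM with vehicle and 10.9, 9.83 and 13.6 CPM with tamoxifen, with 1 value inside the vehicle range on this scale. Neither difference passed (0.82 ± 0.30, adjusted p = 0.192, and 0.48 ± 0.16, adjusted p = 0.416, edgeR), and the average of both was 0.65 ± 0.22 (adjusted p = 0.121), which DESeq2 called (0.66 ± 0.21, adjusted p = 0.0362). Without male flox tamoxifen replicate 3 the difference in flox males was 0.39 ± 0.23 (adjusted p = 0.557). In transgene mice the values overlapped, with 0.57 ± 0.32 in females (adjusted p = 0.448) and -0.11 ± 0.30 in males (adjusted p = 0.953).

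Mymk, required for myoblast fusion, was barely detected, with 0 to 37 counts per library and 0 in 3 libraries, where a count of 0 allows up to 3 counts. Its 3 highest levels were in flox tamoxifen libraries, which had 1.46, 0.113 and 1.14 CPM in males and 0.966, 0.216 and 0.151 CPM in females. Flox males with vehicle had 3, 0 and 0 counts, and flox females with vehicle 24, 6 and 4 counts. In transgene mice no library exceeded 11 counts. Averaged over both sexes the fitted difference with tamoxifen was 2.44 ± 0.77 in flox mice (adjusted p = 0.0886, edgeR) and 0.72 ± 0.93 in transgene mice (adjusted p = 0.783), and fitted values at such counts depend on the prior count. Of 29 alternatives 1 passed, without male flox tamoxifen replicate 2, the lowest library of its group (2.70 ± 0.69, adjusted p = 0.0436). The highest adjusted p among them was 0.265. The filter keeps a gene by its highest libraries. The 3 highest of Mymk were flox tamoxifen libraries, so this test is not separate from the filter.

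Other genes of muscle development were read from a list of 17. In flox mice of both sexes 4 of 17 rose and 0 fell, against 3.45% of all genes, and the list's median was 0.40 beside 0.00 for all genes. Those 4 were Myl4, the embryonic myosin light chain (1.45 ± 0.27, adjusted p = 0.00628, edgeR), Chrng, the fetal acetylcholine receptor subunit (2.26 ± 0.49, adjusted p = 0.0113), the cell cycle inhibitor Cdkn1c (0.53 ± 0.13, adjusted p = 0.0221) and the growth factor Igf2 (0.71 ± 0.19, adjusted p = 0.0431). In transgene mice 2 of 17 rose and 0 fell, against 3.31% of all genes, with a median of 0.23 beside 0.00. These were Actc1, the cardiac actin made in immature muscle (1.83 ± 0.42, adjusted p = 0.0215), and Igf2 (0.68 ± 0.19, adjusted p = 0.0463). Myl4 in transgene mice was 0.23 ± 0.27 (adjusted p = 0.747) and Chrng 1.46 ± 0.73 (adjusted p = 0.33). The response of transgene minus flox mice did not pass for Myl4 in females (-0.74 ± 0.55, adjusted p = 0.838) or males (-1.66 ± 0.45, adjusted p = 0.334). Nor did it pass for Actc1 (0.70 ± 0.71, adjusted p = 0.894, and 1.97 ± 0.88, adjusted p = 0.61). Chrng was not tested there, since it passed the low-count filter over 24 libraries but not in the fits of females or of males. Which libraries brought Chrng past the filter was not examined, so its call may not be separate from the filter.

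**Figure D4:**
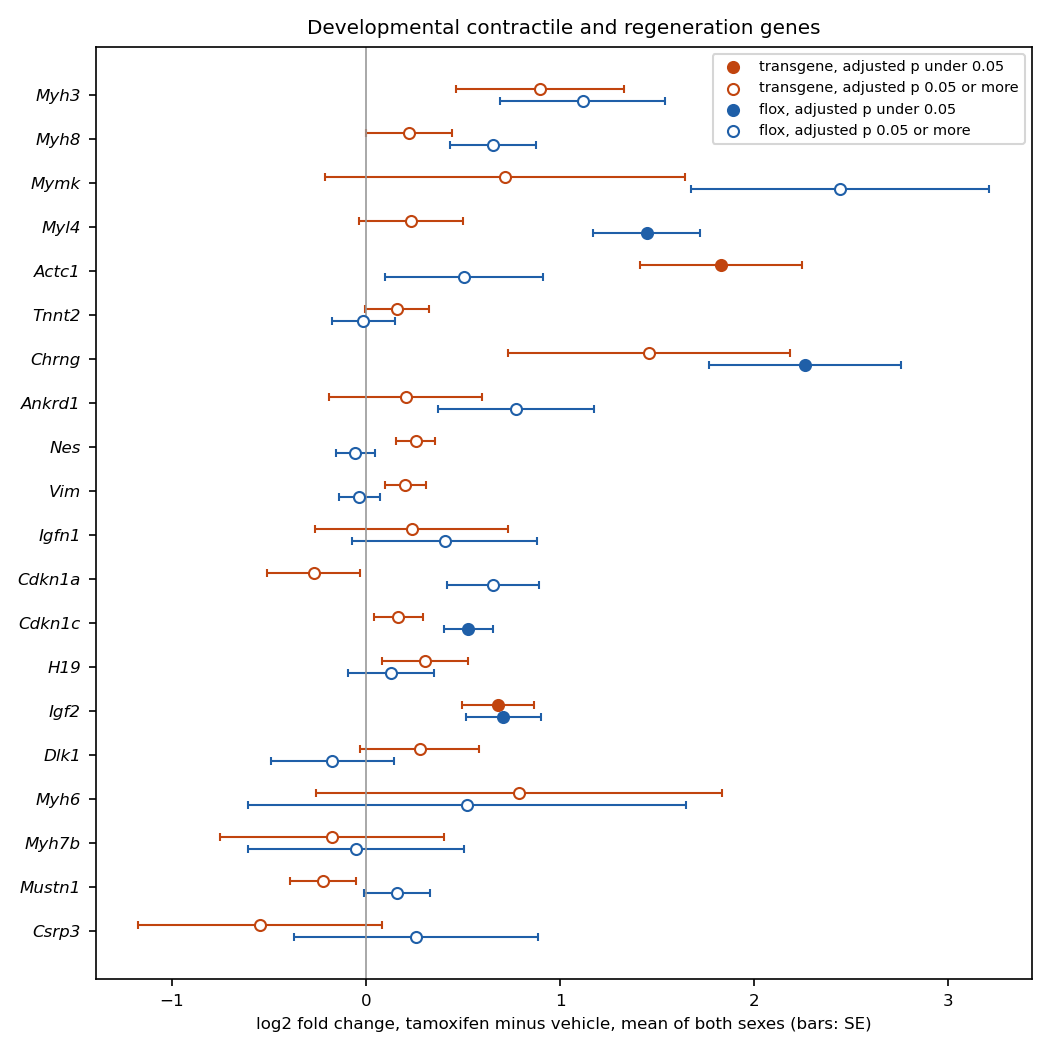
Log2 fold change of tamoxifen minus vehicle averaged over both sexes (horizontal axis, bars: SE) for Myh3, Myh8, Mymk and 17 other developmental contractile and regeneration genes, in transgene (red) and flox (blue) mice, with filled points where the adjusted p is under 0.05. Myl4, Chrng, Cdkn1c and Igf2 are filled for flox mice, and Actc1 and Igf2 for transgene mice.

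Within single comparisons of that list, Myl4 rose in flox males (1.77 ± 0.33, adjusted p = 0.0172, edgeR), where 2.89% of all genes passed. Cdkn1c rose in transgene females (0.57 ± 0.10, adjusted p = 0.0353), where 1.32% passed. Under tamoxifen, male transgene mice had more Actc1 than flox males (3.05 ± 0.66, adjusted p = 0.0341) and less Cdkn1a, which arrests the cell cycle during differentiation (-1.36 ± 0.34, adjusted p = 0.0498). In that comparison 5.23% of all genes passed. Actc1 varied widely among the transgene libraries, at 661 ± 472 CPM (mean and SD) against 79.6 ± 14.5 CPM in flox males. Cdkn1a stood at 11.3 ± 2.78 against 29.0 ± 11.2 CPM.

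Among 21 further myogenic regulators and cofactors, 1 rose and 2 fell in transgene mice of both sexes out of 19 tested, where 3.31% of all genes passed. Msc (musculin), a repressor of myogenic factors, rose by 1.12 ± 0.24 (adjusted p = 0.0108, edgeR). Six4 and Eya1, which act upstream of the myogenic factors, fell by 0.36 ± 0.09 (adjusted p = 0.0286) and 0.38 ± 0.09 (adjusted p = 0.0198). Eya1 also fell in flox mice, by 0.39 ± 0.09 (adjusted p = 0.017), the only 1 of 19 to pass there (3.45% of all genes). Srf, a regulator of contractile genes, was the only 1 of 19 to pass in flox males (2.89% of all genes), where it fell (-0.40 ± 0.09, adjusted p = 0.0358), and under tamoxifen it was higher in transgene than in flox males (0.44 ± 0.09, adjusted p = 0.0178). The list's median was -0.03 in transgene mice and -0.03 in flox mice of both sexes, beside 0.00 for all genes in each.

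Of 18 other satellite cell genes, all tested, Ncam1 was the only one to pass in any of the 12 comparisons, where it rose in flox males (0.73 ± 0.18, adjusted p = 0.0492, edgeR), and 2.89% of all genes passed in that comparison. Over the 12 comparisons there were 22 results of this list at an unadjusted p under 0.05, DESeq2 called 4 and limma-voom 0. Of 15 fusion genes 12 were tested in each comparison and 0 passed. There were 12 results at an unadjusted p under 0.05 over the 12 comparisons, DESeq2 called 3 and limma-voom 0. For all 14211 to 16670 genes tested, single comparisons held 1145 to 3257 results at an unadjusted p under 0.05. There DESeq2 called 45 to 1312 genes and limma-voom 0 to 831, and 0% to 5.23% passed by edgeR.

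Of 10 genes that respond to loss of nerve activity, 1 rose and 1 fell in flox mice of both sexes (3.45% of all genes passed), with a list median of 0.08 beside 0.00. Gadd45a rose (0.83 ± 0.14, adjusted p = 0.00202, edgeR) and Musk, the kinase of the neuromuscular synapse, fell (-0.65 ± 0.14, adjusted p = 0.0133). The Gadd45a response differed between the sexes of flox mice, female minus male, by -1.89 ± 0.29 (adjusted p = 0.00571), a difference that cannot be told apart from table. It rose by 1.77 ± 0.23 in flox males (adjusted p = 0.00304). In transgene mice 1 of the 10 passed (3.31% of all genes), Chrna1, the alpha subunit of the acetylcholine receptor, which rose (0.52 ± 0.13, adjusted p = 0.0306). Under tamoxifen, Chrna1 (-0.52 ± 0.13, adjusted p = 0.0352) and Gadd45a (-1.10 ± 0.22, adjusted p = 0.0183) were lower in male transgene than in male flox mice.

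Markers of other cells were read from 7 lists of 51 genes. In the male vehicle comparison in which Myog passed, 48 were tested and 0 passed by edgeR, with 12 at an unadjusted p under 0.05, 2 called by DESeq2 and 0 by limma-voom. Of all 15628 genes, 0.947% passed by edgeR and 2690 had an unadjusted p under 0.05, with 601 called by DESeq2 and 130 by limma-voom. There the medians were -2.10 for 5 adipocyte markers, -1.14 for 5 tendon markers and -1.15 for 8 proliferation markers, beside -0.02 for all genes. Summed tendon markers were 80.7 to 112 CPM in the transgene and 134 to 187 CPM in the flox libraries, summed proliferation markers 20.1 to 22.0 against 22.4 to 28.1 CPM, and summed adipocyte markers 88.6 to 139 against 113 to 175 CPM. Slow fibre genes were 398 to 3440 against 2430 to 3010 CPM. No marker on these lists was at 0 in all 24 libraries.

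In the male tamoxifen comparison, in which Myod1 and Mef2c passed, 0 of 48 markers passed by edgeR, with 6 at an unadjusted p under 0.05 and 2 called by each other tool. Of all 15628 genes, 5.23% passed by edgeR and 3257 had an unadjusted p under 0.05, with 1312 called by DESeq2 and 831 by limma-voom. Slow fibre genes summed to 147 to 2830 CPM in the transgene and 2650 to 3380 CPM in the flox libraries, with a median difference of -1.14 over 8 genes and 0 that passed by edgeR. The 5 adipocyte markers were all lower in transgene mice, with a median of -1.03 and 0 that passed, and summed to 100 to 137 CPM against 116 to 227 CPM. In flox mice of both sexes, where Myod1 fell, 0 of 50 markers passed, with 5 at an unadjusted p under 0.05, 1 called by DESeq2 and 0 by limma-voom. Of all 16670 genes, 3.45% passed by edgeR and 2817 had an unadjusted p under 0.05, with 866 called by DESeq2 and 547 by limma-voom. In transgene mice of both sexes 1 of 50 passed, the tendon gene Scx (0.60 ± 0.13, adjusted p = 0.0138, edgeR), where 3.31% of all genes passed. The part of other cells in the differences of the myogenic genes was not tested.

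The genes whose levels ran most alike were sought among 13557 named genes across the 24 libraries after removal of table means. These values describe libraries that share groups and tables. Mef2c was most like Arfgef1 (r = 0.89), Kansl1l (0.89) and Arih1 (0.89), and Myod1 most like Sphk2 (0.88), Rer1 (0.85) and Cgrrf1 (0.84). For Myog they were Scrn2 (0.80), Ttf1 (0.74) and P2rx6 (0.73), and for Myf6 Tsc22d3 (0.85), Nrip1 (0.78) and Wbp1l (0.76). Myh3 ran with Appl2 (0.84), Agrn (0.83) and Asic3 (0.81), and Myh8 with Arsg (0.86), Mdm4 (0.77) and Cirbp (0.76). Mymk ran with Calr3 (0.75), Chrng (0.74) and Rb1 (0.73). Pax7 was most like Nedd4 (0.82), Dcaf11 (0.76) and Dcaf8 (0.75), Cdh15 most like Usp19 (0.83), Fbxo31 (0.80) and Mettl22 (0.78), and Myf5 most like Ankhd1 (0.70), Mdm4 (0.70) and Trpm7 (0.70). None of the 10 genes was among the 3 most alike of another.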

How the data were processed

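Total RNA of 24 gastrocnemius samples was sequenced. The authors deposited 3 tables of raw read counts for each Ensembl gene. The submitters' processing notes name GRCm38, mm10, STAR, featureCounts and limma. The sources used here do not give versions, the strand setting or the treatment of multi-mapping reads. The 24 replicate pairs differed by more than sampling noise (chi-square per degree of freedom 8.343 to 103.843), so none was treated as a duplicate.

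A symbol was found for 54723 of 54752 gene IDs (GENCODE M21). Levels are CPM scaled by TMM over 24 libraries. Tests used edgeR 4.0.16 in R 4.3.3 (quasi-likelihood F-test, TMM, filterByExpr with a minimum count of 10, Benjamini-Hochberg, threshold 0.05). Females of each genotype were fitted apart, males together, and sex averages over 24 libraries. SE is the log2 fold change over the square root of F. Non-overlap was judged in the scaling of each fit. Relations used 100000 permutations within groups, two-sided. Alternatives were DESeq2 1.42.0, limma-voom 3.58.1, RLE scaling, other filters, a slow fibre covariate (mean log2 CPM of 8 slow fibre genes), other sample sets and leaving out each library.

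All 10 genes are named, then up to 4 genes per list and comparison past the threshold by smallest p, and the 3 most alike per gene (log2 CPM, prior count 2). The 10 genes, the lists and the tests were chosen with earlier results of these data known. Scripts were tested on simulated counts.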

Additional observations from a re-analysis of the deposited data

How the results depend on the processing

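Of 113 tests of the 10 genes, 4 passed, where 0% to 5.23% of all genes passed in single comparisons. None of these 4 changed sign in any alternative, and the alternatives that ended each call are counted above. Of the 109 others, 15 passed in at least 1 alternative. Among 2521 alternative values, 92 had the opposite sign to a value that had not passed, and 79 of the 113 results kept their sign throughout. Of 160 group levels recomputed with library totals or RLE factors, 5 moved by more than 1 SD. No relation passed with TMM or with library totals, so unchanged calls say little about their values. With library totals, Cdh15 and Myh7 gave r = -0.45 (permutation p = 0.102, adjusted p = 0.602), weaker than with TMM. Myh3 and Myh7 gave r = 0.89 (permutation p = 0.00119, adjusted p = 0.0773).

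Counts of genes past the threshold depended on the tool and filter. DESeq2 called 679 genes against 187 (transgene females), 145 against 19 (flox females), 328 against 139 (transgene males), 871 against 452 (flox males), 601 against 148 and 1312 against 817 between male genotypes under vehicle and tamoxifen, 45 against 0 and 79 against 2 for the unlike responses of females and males, 866 against 575 in flox mice of both sexes, and 148 against 32 and 154 against 34 for the sex differences in transgene and flox mice. Without a filter the counts were 941 (transgene females), 329 (flox females), 221 (transgene males), 327 (male vehicle), 20 and 38 (unlike responses), and 55 and 56 (sex differences). limma-voom called 10 in flox females and 0 for the unlike response of males, and RLE scaling 1 for that of females. The slow fibre covariate gave 104 (transgene females), 73 (flox females), 239 (transgene males), 808 (flox males), 4 for the unlike response of males, 844 in transgene mice of both sexes and 93 for the sex difference in flox mice. A fit of all 24 libraries gave 360 (transgene females), 4 (flox females), 236 (transgene males), 848 (flox males), 415 (male vehicle), 1319 (male tamoxifen) and 1 (unlike response of females). Fits of 6 libraries gave 27 in transgene and 917 in flox males. Without the 3 males with conflicting labels, 384 genes passed in flox males.

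Leaving out 1 library at a time gave 37 to 215 (transgene females), 3 to 87 (flox females), 68 to 151 (transgene males), 143 to 644 (flox males), 44 to 204 under male vehicle, 280 to 997 under male tamoxifen, 0 to 2 and 2 to 8 for the unlike responses of females and males, 351 to 620 and 324 to 678 in transgene and flox mice of both sexes, and 7 to 58 and 15 to 59 for their sex differences. The cause of these changes was not tested.

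Flox females share numbers 1 to 3 in the labels. Same-numbered libraries did not deviate together (r = -0.1978, -0.0309 and -0.1017), and none correlated best with its own number. With the replicate block 15 genes passed against 19, and 0 of the 9 genes tested. Depth limits Mymk (0 to 37 counts), Myf5 (26 to 69) and Pax7 (43 to 168).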
